A study of Mus musculus with 4 samples.

Results

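The regions described here are the most open compact stretches of chromatin in regulatory T cells of mice with an intact Flicr gene. They were chosen as the regions on chromosomes 1 to 19 that were wider than the smallest width in the list and narrower than 2000 bp, called compact, and whose mean over the 2 Flicr WT libraries was 20 RPKM or more. RPKM is the number of reads in a region scaled by the length of the region and the depth of the library. Of 84476 regions in the files, 53121 were compact and lay on these chromosomes, and 1227 of them passed, 2.31% of the compact regions and 1.45% of all regions. The study set 2 libraries from Flicr WT cells against 2 from Flicr KO cells, in which Flicr, a long noncoding RNA gene beside Foxp3, was knocked out. All cells were CD4+ TCRβ+ CD25-high regulatory T cells (the upper 50% by CD25) from spleen and lymph nodes of male NOD mice, 8 to 10 weeks old, with 50000 cells per library. NOD is a strain that develops autoimmune diabetes, and both genotypes carry this background. The sources used here do not say how the knockout allele was made, which control mice were taken, or whether replicates came from separate mice, so the spread between replicates may be technical.

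In ATAC-seq a transposase cuts and tags DNA that nucleosomes and other proteins leave exposed, so reads pile up over promoters, enhancers and other regulatory elements. A short region with a high RPKM is one in which many fragments were released from little DNA. In T cells, strong sites of this kind are commonly promoters of genes active in most cell types and sites bound by the chromatin organiser CTCF, with lineage enhancers among the sites that set a cell type apart. Foxp3, the lineage factor of regulatory T cells, acts largely at elements that are already open in other CD4 T cells. The regions carry no gene names in the files, and no mm9 annotation or genome was used here, so none of them is assigned to a gene, a promoter or a motif, no sequence is given, and the cell type was not checked against its marker genes.

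The libraries held 19514512 to 41809276 reads. Of these, the 84476 regions took 34.5% ± 0.736 in KO against 27.7% ± 4.84 in WT (SD over 2 libraries each), and Flicr WT replicate 1 had the lowest share. The median RPKM over all regions was 1.92 in that library and 2.47 in Flicr WT replicate 2, against 2.54 and 2.46 in Flicr KO replicates 1 and 2. Because of this gap all values are given as deposited and also scaled, with each library divided by its median RPKM over all regions and multiplied by the mean of the 4 medians, 2.35.

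The chosen regions covered 1284 kb, 2.53% of the bases in regions, and took 14.9% ± 0.109 of the region reads in KO and 14.3% ± 0.137 in WT (SD, n = 2 each). Read numbers are given by library, and they may count both ends of a fragment. The lowest number of reads on any chosen region was 132 and 174 in the WT libraries (replicates 1 and 2) and 198 and 106 in the KO libraries. In the same order, the median of the chosen regions was 726, 1048, 1559 and 718 reads. Their median accessibility as deposited was 23.1 and 30.1 RPKM in the WT libraries and 35.3 and 33.9 RPKM in the KO libraries, again in the order of replicates 1 and 2, an order kept throughout. The WT libraries thus lay far apart as deposited and the KO libraries close together. After scaling, the medians were 28.3 and 28.6 in WT and 32.6 and 32.3 in KO (KO 32.5 ± 0.166, WT 28.5 ± 0.214, SD, n = 2 each), so that replicates of 1 genotype lay much closer than the genotypes did.

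**Figure D1:**
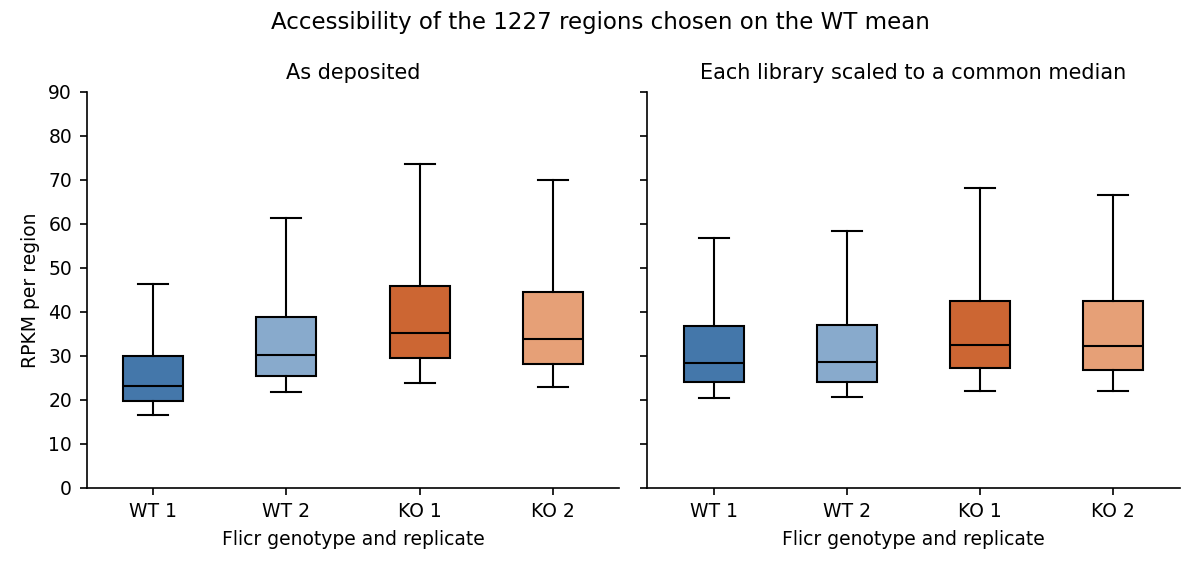
RPKM of the 1227 regions in each library, as deposited on the left and after each library was scaled to a common median on the right; boxes span the quartiles with the median as a line, and whiskers run from the 5th to the 95th percentile. As deposited WT 1 has the lowest median, 23.1 RPKM, and KO 1 the highest, 35.3 RPKM. After scaling both WT medians are below both KO medians, an order that rests on median scaling, since the KO minus WT median of the set was −0.0080 with quantile normalization and −0.016 with cyclic loess on the log2 scale.

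The WT means of the regions ran from the limit to 97.8 RPKM, with a median of 26.4. They crowd near the limit: 524 regions (42.7%) were under 25 RPKM, 263 were from 25 to 30, 359 from 30 to 50, and 81 (6.60%) at 50 or more. The limit itself separates nothing. The last regions inside it were chromosome 1, 60850649 to 60851024, with 15.3 and 24.7 RPKM in the WT libraries, and chromosome 18, 89150344 to 89150656, with 16.8 and 23.2 RPKM. The first regions outside it were chromosome 1, 174306331 to 174307668, with 17.6 and 22.4 RPKM, and chromosome 8, 26707271 to 26708504, with 19.4 and 20.6 RPKM. Of the 1227 regions, 338 were under 20 RPKM in the first WT library and 9 in the second, while 12 and 23 were under it in the KO libraries.

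Width was not used to rank the regions, and the openness of compact regions went with it. Regions of 1000 bp or more made up 18.6% of the compact regions and 52.6% of the chosen ones, and 6.54% of that class passed. Of the regions of 500 to under 1000 bp, 2.57% passed, and of the narrower ones 0.524%. The median width was 1041 bp among the chosen regions, with quartiles of 694.5 and 1374 bp, and 502 bp among the other compact regions. RPKM is divided by width. The rules that drew the region borders are not given in the sources used here and their part in the relation was not tested. Outside the width limits, 0 of the 26335 autosomal regions of the smallest width, which all have the same length, reached a WT mean of 20 RPKM, where the highest had 18.0 RPKM, and 198 of the 2808 autosomal regions of 2000 bp or more did, 7.05%. Among the regions that passed, the median WT mean was 23.9 RPKM in the narrowest class, 25.9 in the middle one and 27.1 in the widest. The highest WT means were 60.3, 97.8 and 92.9 RPKM in the same order. The limit of 20 RPKM draws such medians together, so they do not show that levels were alike.

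The top of the list was made of regions of 776 to 1442 bp. The highest WT mean was that of chromosome 1, 9534982 to 9535757, the highest of its width class (500 to under 1000 bp) as well, with 82.5 and 113 RPKM in the WT libraries and 141 and 131 RPKM in the KO libraries. The next was chromosome 6, 95067607 to 95068486, with 80.8 and 107 RPKM in WT and 130 and 132 RPKM in KO. In both regions the KO values were above the WT values without overlap. Chromosome 17, 57170723 to 57171840, the highest of 1000 bp or more, had 85.8 and 100 RPKM in WT and 120 and 114 RPKM in KO. The fourth, chromosome 13, 86185722 to 86186771, had the widest gap between WT libraries of these 10, with 66.9 and 115 RPKM, and 143 and 121 RPKM in KO. The gap narrowed but stayed after scaling, at 81.9 and 109 RPKM in WT against 132 and 115 RPKM in KO.

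The other 6 had WT means from 85.4 to 90.9 RPKM. They were chromosome 2, 93997792 to 93998749 (82.0 and 99.9 RPKM in WT, 129 and 118 in KO) and chromosome 2, 84517640 to 84519081 (78.1 and 102 RPKM in WT, 136 and 118 in KO). Chromosome 6, 33009731 to 33010689, had 73.7 and 103 RPKM in WT and 115 and 107 in KO, and chromosome 12, 93086835 to 93088131, had 71.2 and 105 RPKM in WT and 117 and 109 in KO. The last were chromosome 11, 21471613 to 21472624 (77.8 and 98.1 RPKM in WT, 122 and 116 in KO) and chromosome 9, 19426152 to 19427062 (72.1 and 98.7 RPKM in WT, 126 and 113 in KO). In all 10 both KO libraries were above both WT libraries, as deposited and after scaling. This held for 33.2% of all regions tested as deposited and 23.5% after scaling. Among the 145 compact regions with a mean of 50 RPKM or more over the 4 libraries it held for 85.5% after scaling, so it does not set these 10 apart from regions of like level. Of the 10, 9 were also among the 10 compact regions of highest KO mean. The KO minus WT difference on the log2(RPKM + 1) scale ran from 0.34 to 0.58 as deposited and from 0.14 to 0.38 after scaling, but in 5 of them it turned negative with cyclic loess, and in 3 of these 5 with quantile normalization too, to between −0.12 and −0.011.

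**Figure D2:**
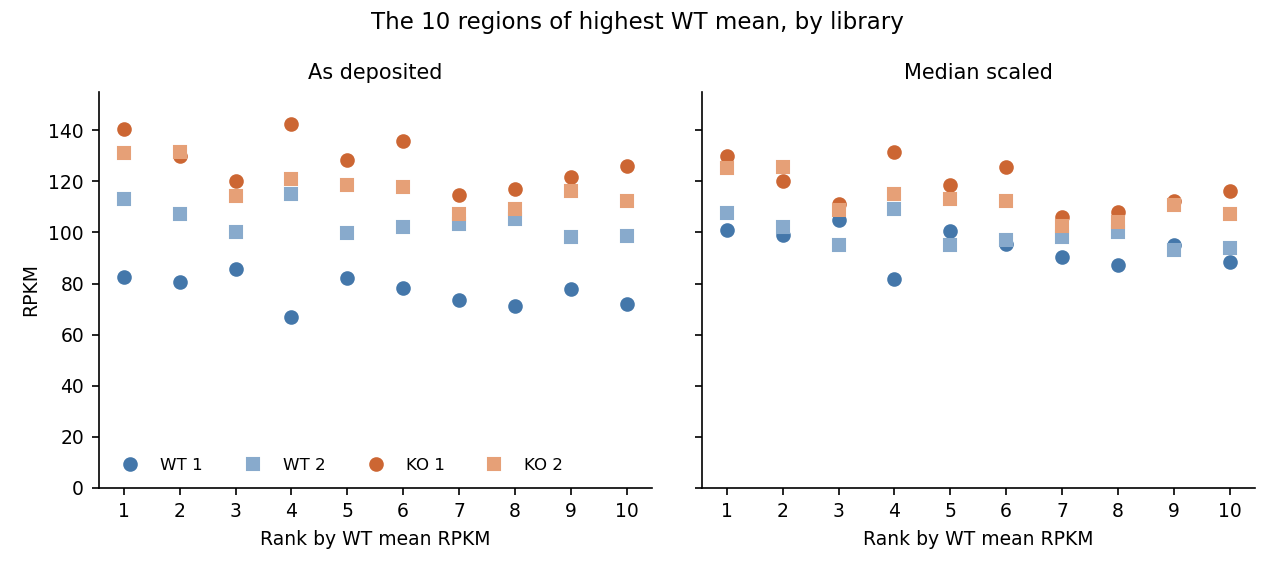
RPKM of the 10 compact regions of highest WT mean in each of the 4 libraries, ordered by that mean, as deposited on the left and median scaled on the right. In each region both KO points lie above both WT points in both panels, by 0.14 to 0.38 on the log2(RPKM + 1) scale in the right one. After scaling this order held for 85.5% of compact regions with a mean of 50 RPKM or more over the 4 libraries. With cyclic loess 5 of the 10 differences were below 0, down to −0.12.

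Among regions of less than 500 bp the highest was chromosome 13, 23775790 to 23776164. It had 53.3 and 67.3 RPKM in WT and 67.8 and 69.9 RPKM in KO. Its scaled values, 65.3 and 64.0 RPKM in WT and 62.6 and 66.6 RPKM in KO overlapped, and their means were 64.7 and 64.6 RPKM, so it did not share the offset of the 10 highest regions.

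The next question was how the chosen regions differed between KO and WT. Since the WT values chose them, the difference is a description here and carries no test. Of the 1227 regions, 1210 had a higher mean log2 value in KO as deposited and 17 a lower one, with a median difference of 0.37, where the median over all regions tested was 0.21. Of all regions, 70.2% were above 0 as deposited and 57.0% after scaling, and of all compact ones 74.4% and 59.2%. After scaling, 1096 were above 0 (89.3%), with a median of 0.18 (quartiles 0.088 and 0.27), against a median of 0.064 over all regions tested. Without Flicr WT replicate 1, 1120 were above 0 as deposited with a median of 0.18, and 1097 after scaling with a median of 0.16. Quantile normalization and cyclic loess, which force the libraries to agree at each level, gave 583 and 540 regions above 0 and set medians of −0.0080 and −0.016, so the direction of the set depends on the scaling. Scaling to the total reads in regions gave 816 regions above 0 and a median of 0.054. In a bulk library a site that is open in more cells cannot be told apart from one that is more open per cell.

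In 979 of the 1227 regions both KO libraries were above both WT libraries as deposited, where this held for 33.2% of all regions tested, and in 4 regions both were below (7.81% of all tested). After scaling, 754 regions (61.5%) had both KO libraries on top, against 23.5% of all tested, and 31 (2.53%) had both below, against 13.8%. Most regions tested were far less open. By mean RPKM over the 4 libraries, both KO libraries were on top in 55.1% of compact regions from 20 to 30 RPKM. The share was 69.7% from 30 to 50 RPKM and 85.5% at 50 RPKM or more, in bins that include chosen regions. The number with both KO libraries on top was 354 when scaled to total region reads, 173 with quantile normalization and 162 with cyclic loess. The share of all regions was not computed under these scalings, so nothing is read from these counts about the chosen regions. The limma test over all regions called 0 of the 1227 in either direction, as deposited and scaled, where the background was 0.0187% higher and 0% lower as deposited and 0% in both directions when scaled. At unadjusted p under 0.05 limma had 330 of them higher and 1 lower as deposited (8.22% and 0.842% of all tested), and 377 higher and 6 lower when scaled (5.29% and 2% of all tested), and nothing is read from these counts because the contrast shares its WT values with the rule. Limma voom, a weighted fit here run on the recovered reads with region totals as depth, called 5 of the 1227, where it called 0.0249% of all tested higher and 0.015% lower, and nothing is read from these calls either. They were 3 higher, namely the regions at 84517640 of chromosome 2 and 86185722 of chromosome 13 given above and chromosome 7, 38984634 to 38986507 (named after its values were seen, 30.9 and 37.6 RPKM in WT, 59.6 and 55.4 in KO), and 2 lower, at 35112763 of chromosome 9 and 39984404 of chromosome 17, described further on.

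The difference was also read for each pair of libraries. As deposited, the median difference over the 1227 regions was 0.54 and 0.59 for the KO libraries against Flicr WT replicate 1 and 0.16 and 0.22 against Flicr WT replicate 2, while the WT libraries differed from each other by 0.37. After scaling, the 4 pairs of KO with WT had medians of 0.17, 0.17, 0.19 and 0.19, and the pairs within a genotype had −0.012 (KO replicate 2 minus replicate 1) and 0.014 (WT replicate 2 minus replicate 1). The scaled offset between genotypes was thus about the same whichever libraries were paired. With medians within a genotype near 0 the 4 pairs could hardly differ, so they do not count as separate observations. The offset also rests on median scaling, since the set median was 0.054 with total scaling, −0.0080 with quantile normalization and −0.016 with cyclic loess. Region by region the replicates were less close: the median absolute scaled difference was 0.15 within WT and 0.10 within KO, against 0.29 and 0.27 among the other compact regions.

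A choice on the WT mean and one on the KO mean pull the difference in opposite directions, so the same rule was applied to the KO libraries. It took 2113 compact regions, 1.72 times as many. They held 1217 of the 1227 WT-chosen regions (99.2%), which made up 57.6% of the KO-chosen set. With scaled values the sets were closer in size, 1434 on the WT mean and 1849 on the KO mean with 1389 in both, 96.9% of the first and 75.1% of the second. The KO-chosen set had a median log2 difference of 0.40 as deposited and 0.21 after scaling, against medians of 0.37 and 0.18 for the WT-chosen set. Of its 2113 regions, 2106 and 1949 were above 0, where 70.2% and 57.0% of all regions were. Limma called 1 of the 2113 higher in KO as deposited (0.0473%, against 0.0187% of all tested) and 0 after scaling. The KO values chose this set, so nothing is read from that call. With quantile normalization the median of the KO-chosen set was 0.026 and with cyclic loess 0.017. The order of the most open regions was largely shared: of the 1227 compact regions with the highest KO mean, 1103 (89.9%) were the WT-chosen ones.

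**Figure D3:**
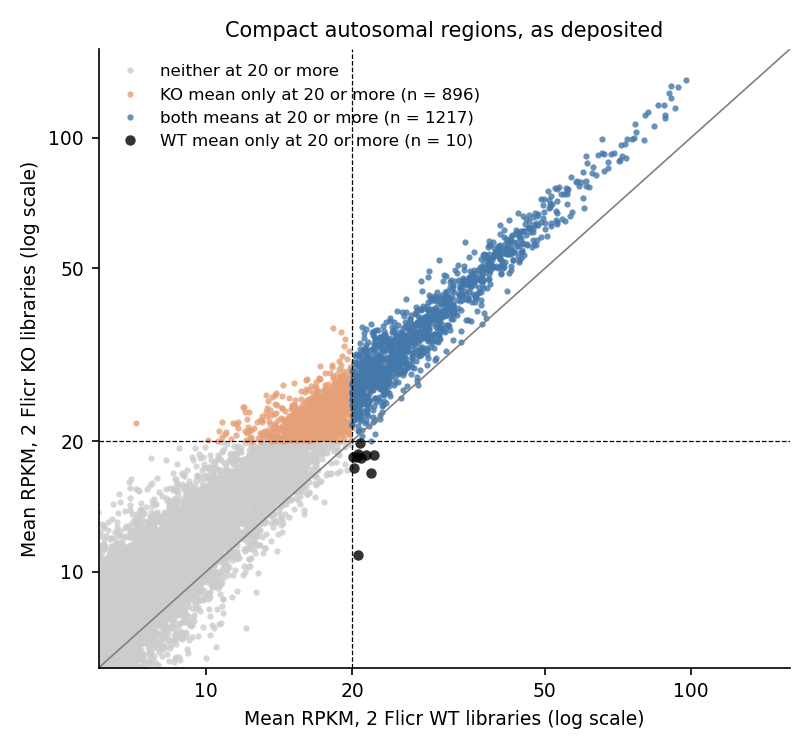
Mean RPKM as deposited in the 2 KO libraries against the 2 WT libraries for compact autosomal regions with at least 1 mean of 6 RPKM or more, both axes on a log scale, with dashed lines at 20 RPKM and the line of equal values in grey. Points in blue (1217) pass in both genotypes, orange (896) on the KO mean alone and black (10) on the WT mean alone. Orange points lie above the grey line and black points below it by the rule itself. Most blue points also lie above it. In the WT-chosen set, blue and black, the median difference was 0.37 on the log2(RPKM + 1) scale. Quantile normalization and cyclic loess took this offset to −0.0080 and −0.016.

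The 896 regions that passed on the KO mean alone were mostly near the limit in WT, with a median WT mean of 17.0 RPKM and 736 of them at 15 RPKM or more. The most open of them in KO was chromosome 2, 49472217 to 49472915, with 16.3 and 20.2 RPKM in WT and 41.2 and 31.7 RPKM in KO. Chromosome 1, 52420540 to 52420979, had 14.6 and 23.3 RPKM in WT and 35.4 and 36.1 RPKM in KO, and chromosome 6, 99596434 to 99596871, had 21.2 and 17.4 RPKM in WT and 32.1 and 36.8 RPKM in KO. In these 3 regions the libraries did not overlap between genotypes as deposited or after scaling, and since they were picked for a high KO mean that gap is a description.

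The 10 regions that passed on the WT mean alone had KO means from 10.9 to 19.8 RPKM. The 3 with the highest WT means were chromosome 2, 98506349 to 98507553 (24.0 and 20.4 RPKM in WT, 19.5 and 17.7 in KO), chromosome 17, 39984404 to 39985830 (26.9 and 16.9 in WT, 16.9 and 16.8 in KO) and chromosome 3, 137886002 to 137886315 (20.5 and 22.2 in WT, 19.7 and 17.4 in KO). The second of these owed its WT mean to 1 library: after scaling Flicr WT replicate 1 was at 33.0 RPKM and the other 3 libraries at 15.6 to 16.0 RPKM.

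A choice that gives each library the same weight, a mean of 20 RPKM or more over all 4 libraries, took 1630 compact regions. It was made on values as deposited, which were higher in KO, so a region could pass through its KO values. The region at 49472217 of chromosome 2 did, with a WT mean of 18.3 RPKM and a KO mean of 36.5 RPKM. The same libraries chose the set and gave the contrast, so nothing is read from its counts at unadjusted p or its voom calls. Limma, with Benjamini-Hochberg adjustment over 80254 regions, called 0 of the 1630 higher or lower in KO as deposited (smallest adjusted p 0.153) and 0 after scaling (smallest adjusted p 0.537). At unadjusted p under 0.05 there were 475 higher and 0 lower as deposited, 29.1% of the set higher against 8.22% of all tested, and 500 higher and 1 lower after scaling, 30.7% against 5.29%. Limma voom called 4 of them, all higher in KO (0.0249% of all tested higher), and 3 of the 4 were among the WT-chosen regions named above, with the region at 49472217 of chromosome 2 as the other. The 1630 regions had a median log2 difference of 0.39 as deposited and 0.19 after scaling, between the values of the sets chosen on 1 genotype. Of them, 1621 and 1480 were above 0, where 70.2% and 57.0% of all regions were. With quantile normalization the median of the 1630 was 0.0099 and with cyclic loess −0.0014. Without Flicr WT replicate 1 it was 0.19 as deposited and 0.18 after scaling. Leaving out a WT library changed the count of calls, from 0 to 31 as deposited (0.199% of all tested) and 5 scaled (0.0424%) without Flicr WT replicate 1, and to 1246 as deposited (8.05% of all tested) and 87 scaled (0.338%) without Flicr WT replicate 2. In such fits the lone WT library was assumed to vary as the KO libraries did.

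The scaled difference was graded by level. Compact regions with a mean under 2 RPKM over the 4 libraries had a median scaled log2 difference of −0.038 (16560 regions), those from 2 to 5 RPKM 0.060 (20323) and those from 5 to 10 RPKM 0.12 (10062). It went on to 0.15 from 10 to 20 RPKM (4546 regions), 0.18 from 20 to 30 (1000), 0.20 from 30 to 50 (485) and 0.23 at 50 RPKM or more (145). The share of regions with both KO libraries above both WT libraries went from 15.5% in the lowest of these bins to 85.5% in the highest. Such a share also depends on how close replicates lie. Their median absolute scaled gap was 0.15 (WT) and 0.10 (KO) in the chosen regions, against 0.29 and 0.27 in other compact regions. The median differences from 20 RPKM up continued a gradient that ran through the bins below. On the log2(RPKM + 1) scale the pseudocount of 1 RPKM damps differences of the regions with low values and hardly touches those over 20 RPKM. Within the WT-chosen set the scaled median went from 0.16 at 20 to 25 RPKM of WT mean to 0.22 at 50 RPKM or more. Quantile normalization and cyclic loess remove a gradient of this kind by construction, and whether it is of technical or biological origin was not tested.

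**Figure D4:**
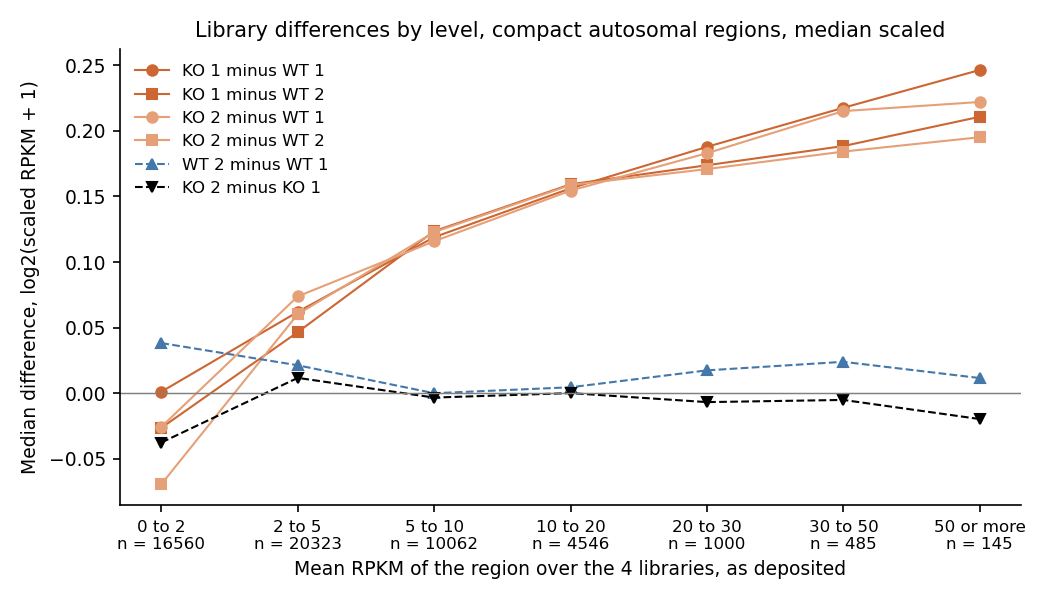
Median difference in log2(scaled RPKM + 1) between each pair of libraries, for compact autosomal regions binned by their mean RPKM over the 4 libraries; solid lines are pairs of KO with WT, dashed lines are replicates of 1 genotype. The 4 solid lines run from between −0.069 and 0.0011 in the lowest bin to between 0.20 and 0.25 in the highest, and the dashed lines stay between −0.038 and 0.038. The solid lines depend on median scaling: with cyclic loess the median of the set chosen on all libraries was −0.0014.

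The largest scaled differences toward KO were in regions of moderate openness. The 15 regions above 0.5 had a median WT mean of 23.4 RPKM and a median width of 577 bp. Chromosome 7, 13534721 to 13535564, had 15.9 and 39.5 RPKM in WT and 49.6 and 44.0 RPKM in KO, a scaled difference of 0.67. Its WT libraries disagreed by more than the WT library nearest to KO did from the KO libraries. The same held for chromosome 16, 94576108 to 94576483, with 13.0 and 31.3 RPKM in WT and 33.0 and 38.8 RPKM in KO (0.60 scaled). In 3 other regions the replicates lay closer. Chromosome 7, 28834924 to 28835485, had scaled values of 21.0 and 23.6 RPKM in WT and 35.4 and 33.3 RPKM in KO, a difference of 0.60. Chromosome 13, 76718624 to 76719236, had 28.3 and 32.9 scaled RPKM in WT and 47.5 and 44.9 in KO (0.58), and chromosome 7, 4378833 to 4379284, had 33.3 and 31.7 in WT and 46.2 and 52.0 in KO (0.58). In these 3 regions the gap between genotypes was wider than that between replicates, and the difference was above 0 under each scaling tried.

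As deposited and under median scaling few regions were lower in KO, while with quantile normalization and cyclic loess only 583 and 540 of the 1227 were above 0. The lowest under median scaling were near the limit of the rule. The 131 regions with a scaled difference under 0 had a median of −0.061, and 11 were under −0.25. The lowest was chromosome 9, 35112763 to 35113239, with 24.7 and 16.5 RPKM in WT and 10.3 and 11.6 RPKM in KO, on 344, 254, 204 and 108 reads, a log2 difference of −0.83 as deposited and −1.02 after scaling. The regions at 39984404 of chromosome 17 and 98506349 of chromosome 2, given above, followed with −0.52 and −0.44. In these 3 regions Flicr WT replicate 1 was the highest library after scaling, at 30.3 RPKM against 15.7 in the other WT library for the region on chromosome 9, and at 29.4 against 19.4 RPKM for the one on chromosome 2. In 31 regions both KO libraries were below both WT libraries after scaling, so the highest library there can only be 1 of the 2 WT libraries. It was Flicr WT replicate 1 in 17 of the 31, a count that sets neither WT library apart. Chromosome 3, 137886002 to 137886315, was at −0.39, with scaled values of 25.2 and 21.1 RPKM in WT and 18.2 and 16.5 RPKM in KO. Chromosome 14, 53186472 to 53187032, was at −0.36, with 20.8 and 23.5 scaled RPKM in WT and 18.9 and 15.4 in KO. Whether any of these regions lies in repeated sequence that the genome build holds in too few copies was not tested.

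Large gaps between replicates were rare. No chosen region had a scaled difference over 1 on the log2(RPKM + 1) scale between replicates of either genotype. A difference over 0.5 was seen in 46 between the WT libraries and in 11 between the KO libraries. Without the pseudocount, the WT libraries were 1.04 apart in log2 at both 39984404 and 85243875 of chromosome 17. Small gaps were common: the median absolute gap within WT was 0.15, near the scaled KO minus WT median of 0.18. Besides the regions at 39984404 of chromosome 17 and 35112763 of chromosome 9, the WT libraries were farthest apart at chromosome 17, 85243875 to 85245064, with 34.8 and 16.9 scaled RPKM in WT and 27.3 and 22.7 in KO. The KO libraries were farthest apart at chromosome 16, 64800293 to 64800858 (35.8 and 21.8 scaled RPKM in KO, 26.3 and 27.4 in WT), chromosome 7, 52823365 to 52823926 (16.1 and 26.2 in KO, 22.7 and 20.9 in WT) and chromosome 1, 108048387 to 108048892 (as deposited 43.2 and 26.2 in KO, 19.2 and 26.5 in WT). In all 4 of these regions the genotypes overlapped after scaling. Across the 1227 regions, which share library depth and were chosen on 2 of the libraries, the Spearman correlation of RPKM was 0.915 within KO and 0.793 within WT, and Flicr WT replicate 2 was closer to the KO libraries (0.900 and 0.905) than to its own replicate.

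The chosen regions were spread unevenly over the chromosomes. Chromosome 7 held 119 of them among 3045 compact regions (3.91%) and chromosome 11 held 27 among 2797 (0.965%), a ratio of 4.05. Chromosome 13 came next at the upper end with 88 of 2746 (3.20%), and chromosome 15 at the lower end with 34 of 2323 (1.46%). The median WT mean of the chosen regions, all cut at the limit of 20 RPKM, ran from 23.6 to 29.5 RPKM over the 19 chromosomes. The unevenness was present in each library: among the 1227 most open compact regions of a single library, chromosome 7 held 114 to 126 and chromosome 11 held 23 to 30. By width, 11.6% of the chromosome 7 regions of 1000 bp or more were chosen against 2.96% on chromosome 11, and 3.88% against 1.33% at 500 to under 1000 bp. Below 500 bp chromosome 7 did not stand out: 5 of its 1412 regions were chosen (0.354%), under the 0.524% of that class on all 19 chromosomes and under chromosomes 13 (1.16%) and 15 (0.507%), with chromosome 11 at 2 of 1417 (0.141%). The KO-chosen set gave 6.14% on chromosome 7 and 1.97% on chromosome 11. The scaled KO minus WT median of the chosen regions lay above 0 on each of the 19 chromosomes, from 0.10 to 0.23, under median scaling; the values by chromosome were not computed under quantile normalization or cyclic loess.

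**Figure D5:**
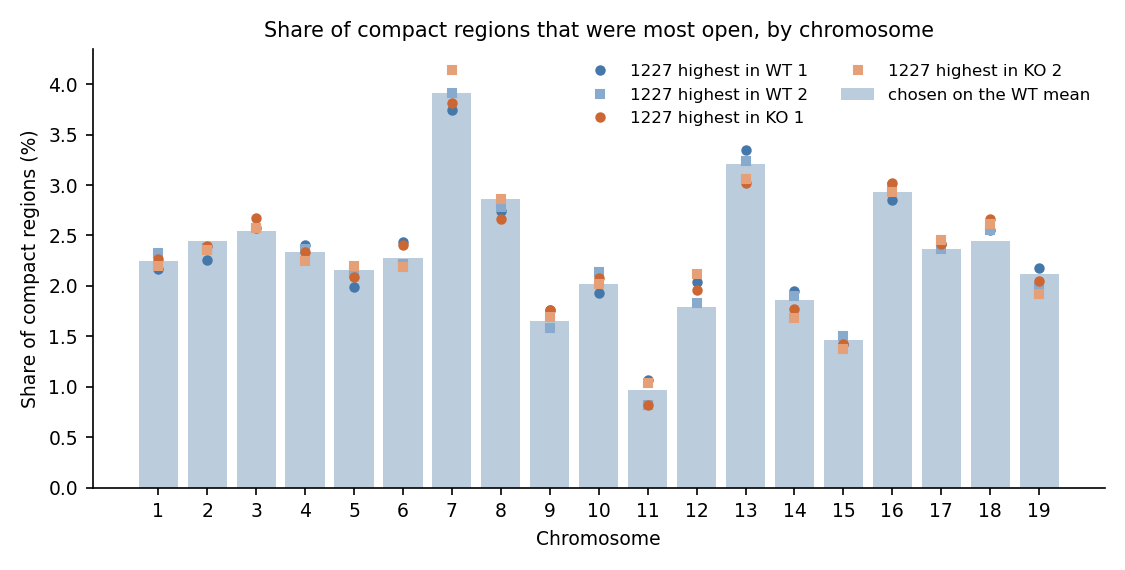
Share of the compact regions of each chromosome, in percent, that was chosen on the WT mean (bars) or was among the 1227 most open compact regions of a single library (points). Chromosome 7 is highest, at 3.91%, and chromosome 11 lowest, at 0.965%, and the points of the 4 libraries lie close to the bars.

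Chosen regions lay farther from their neighbours than other compact regions did. The nearest other region of any kind was a median of 3153 bp away, against 1850 bp for the other compact regions, and 59.2% had one within 5000 bp against 71.2%. The gap was larger in each width class, at 3230 against 1415 bp among regions of 1000 bp or more. The nearest other chosen region was a median of 314652 bp away, and 18 of the 1227 (1.47%) had one within 5000 bp. The regions beside them were also read, as a description. Chosen regions were left out of these neighbours, so the compact ones among them had WT means under 20 RPKM, and the same 4 libraries gave their differences. The 1329 other autosomal regions within 5000 bp had a median of 2.06 RPKM over the 4 libraries and a median scaled difference of 0.048. Set against regions of like level farther away, these neighbours were at 0.19 (94 regions) against 0.15 (5107) from 10 to 20 RPKM, 0.13 against 0.11 from 5 to 10 RPKM, 0.085 against 0.061 from 2 to 5 RPKM and −0.075 against −0.029 under 2 RPKM. The neighbours thus followed the gradient by level seen over all compact regions, and no test was made of the small gaps.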

How the data were processed

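ATAC-seq of 4 libraries was used, 2 Flicr WT and 2 Flicr KO, grouped by the labels. The authors deposited 1 RPKM value per region and library over 1 shared region list, per the file headers; HOMER 4.6, DiffBind, Bowtie2, SAMtools, Picard 1.130 and the build mm9 are listed, without roles, per the submitters' processing notes. Region calling, duplicate handling and any transposase offset are not given in the sources used here, nor is whether reads over repeats were removed. Coordinates are of mm9 and count from 1. Values times the width less 1 bp, divided by the smallest such product of the library, gave whole read numbers in 100% of regions (tolerance 0.001 reads). These supplied the depths and the voom alternative. They were even in 78.8% to 85.5% of regions, by library. Whether both ends of a fragment were counted was not tested.

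KO was compared with WT by limma 3.58.1 (R 4.3.3, trend and robust) on log2(RPKM + 1), a scale that understates changes of low values. Regions with a mean under the 5th percentile, 1.01 RPKM, were left out (4222), and 80254 were tested with Benjamini-Hochberg adjustment at 0.05; all 1227 chosen regions passed this filter. The fit was tested on simulated data. Python 3.11.15 with pandas 2.3.3, numpy 2.4.6 and matplotlib 3.10.9 made the tables and figures. Alternatives covered scaling, pseudocount, filter, test, the limit of the rule, the choosing library, each left-out library and a replicate block.

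Named regions were the 10 of highest WT mean, the 5 largest scaled differences each way without overlap of genotypes, those next to the limit, the 3 highest of each set missing from the other, the highest per width class, and the 3 with the widest replicate gap per genotype. The members and lists were chosen with earlier results of these data known.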

Additional observations from a re-analysis of the deposited data

How the results depend on the processing

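The scaling to a median over compact regions, unadjusted p, the alternatives for calls within the sets and those for counts of regions above 0 were chosen after seeing the data. Against 15 calls over all regions as deposited (15 higher), limma made 0 with total scaling, quantile normalization, cyclic loess, the median of compact regions and no trend, 25 without a filter, 30 at adjusted p under 0.10, 32 with voom, 42 with a replicate block, 7274 at unadjusted p under 0.05, and 0 to 6458 with a library left out. Against 0 when scaled there were 32 with voom, 28 with the block, 5851 at unadjusted p, and 0 to 271 with a library left out. In the all-library set, against 0, voom called 4, the block 3 (scaled), unadjusted p 475 and 501, and leaving out a library 0 to 1246 as deposited and 0 to 87 scaled; in the WT-chosen set voom called 5, the block 1 (scaled), unadjusted p 331 and 383, and leaving out a library 0 to 944 and 0 to 75. The counts over all regions were out of 80254, or 84476 without a filter, and those in the sets out of 1630 and 1227. Directions were pooled in all but the main count, and in the WT-chosen set 2 voom calls were lower in KO. Libraries that chose the sets also gave the contrast, so nothing is read from the set counts. Fits with a library left out had 1 library in a genotype, so their counts over all regions are not read either. The labels give replicate numbers and do not say whether same-numbered libraries were handled together. With 2 pairs and median scaled values, the deviations of same-numbered libraries correlated at 0.0021 over all regions tested and −0.086 over the chosen regions. This cannot settle whether the libraries were paired, since the scaling had already removed a shift common to a library.

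The set medians (WT-chosen, KO-chosen, all-library) were 0.054, 0.082 and 0.067 with total scaling, −0.0080, 0.026 and 0.0099 with quantile normalization, −0.016, 0.017 and −0.0014 with cyclic loess, and 0.11, 0.14 and 0.12 with the median of compact regions, as these scalings take out part or all of a shift by construction. Scaled medians were 0.16, 0.18 and 0.17 with a pseudocount of 5, 0.16, 0.19 and 0.18 with the limit at 15 RPKM, and 0.20, 0.22 and 0.21 at 30 RPKM. With a library left out they spanned 0.18 to 0.56, 0.21 to 0.58 and 0.19 to 0.57 as deposited, the lowest without Flicr WT replicate 1 and the highest without Flicr WT replicate 2, and 0.16 to 0.19, 0.19 to 0.21 and 0.18 to 0.20 scaled. Chosen on WT replicate 1 and read against WT replicate 2, the WT-chosen median was 0.20 as deposited and 0.18 scaled, and the other way round 0.58 and 0.21; chosen on KO replicate 1 and read from replicate 2, the KO-chosen median was 0.36 and 0.19. Of 1227 regions, 583 (quantile) and 540 (loess) were above 0, and both KO libraries were on top in 354 (total), 173 (quantile), 162 (loess) and 544 (median of compact regions). The shares of all regions under these scalings were not computed. Beyond what a scaling removes by construction, the cause was not tested. Of 640 fold changes of the 32 named regions under the alternatives, 481 moved by less than the replicate SD, 159 by more, and 59, in 12 regions, changed sign, none of them called.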
